A study of Homo sapiens with 12 samples.

Results

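The TGF-beta and BMP signalling genes examined here are 10 genes chosen by their symbols out of the 20531 genes listed for each library. They comprise the ligand genes TGFB1 and TGFB2, the receptor gene TGFBR2, the pseudoreceptor gene BAMBI, SMAD3, the inhibitory SMAD genes SMAD6 and SMAD7, and the BMP-responsive genes ID1, ID2 and ID3. All 10 members were found, and all 10 had at least 10 counts in 1 or more libraries of each comparison, which was the filter for testing. RNAseq was performed on SKBR-3, an established HER2-amplified breast carcinoma cell line without hormone receptors, in 4 groups of 3 replicates. The groups were a non-targeting (NT) siRNA control pool with DMSO, NT siRNA with lapatinib, a FOXA1 siRNA pool with DMSO, and FOXA1 siRNA with lapatinib. Lapatinib, an inhibitor of the HER2 and EGFR kinases, was given at 300 nM for 24 h. All 4 groups were transfected and all received DMSO or drug, so no untransfected cells enter the comparisons, and every library comes from this 1 line. The sample labels give 48 h of siRNA before the drug, whereas the methods of the study give 24 h.

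TGF-beta and BMP ligands signal through pairs of type II and type I receptor kinases that phosphorylate receptor SMADs, which enter the nucleus with SMAD4 and regulate transcription. SMAD6, SMAD7 and BAMBI are induced by the pathway and restrain it, so their RNA often serves as a readout of its activity as well as of its inhibition. The ID genes are classical BMP targets and encode helix-loop-helix proteins without a DNA-binding domain, which hold E proteins away from DNA. In breast epithelium TGF-beta is known for restraining proliferation early and for promoting invasion later in tumors.

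The promoter sequences of 5 members are shown first, because BAMBI and TGFB2 had the largest falls after FOXA1 siRNA in DMSO among the members and the 3 ID genes, 1 gene family, did not move alike. Sequences are the 250 bases before the start of each gene in RefSeq (GRCh38.p14), read 5′ to 3′ on the strand of the gene, with matches to the words named next in capitals. The windows lie at chr10:28677271-28677520 (+) for BAMBI, chr1:218345086-218345335 (+) for TGFB2, chr20:31605039-31605288 (+) for ID1, chr2:8681806-8682055 (+) for ID2 and chr1:23559502-23559751 (-) for ID3.
BAMBI: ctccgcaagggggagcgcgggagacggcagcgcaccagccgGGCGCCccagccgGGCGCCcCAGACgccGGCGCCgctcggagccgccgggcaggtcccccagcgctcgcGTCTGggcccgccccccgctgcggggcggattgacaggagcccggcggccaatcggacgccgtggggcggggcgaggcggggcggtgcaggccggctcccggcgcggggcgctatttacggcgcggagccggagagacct
TGFB2: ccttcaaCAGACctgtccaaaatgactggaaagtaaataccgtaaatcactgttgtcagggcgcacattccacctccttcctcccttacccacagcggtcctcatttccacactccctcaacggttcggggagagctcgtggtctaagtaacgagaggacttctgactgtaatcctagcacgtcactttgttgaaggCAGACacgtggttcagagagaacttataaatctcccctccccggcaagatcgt
ID1: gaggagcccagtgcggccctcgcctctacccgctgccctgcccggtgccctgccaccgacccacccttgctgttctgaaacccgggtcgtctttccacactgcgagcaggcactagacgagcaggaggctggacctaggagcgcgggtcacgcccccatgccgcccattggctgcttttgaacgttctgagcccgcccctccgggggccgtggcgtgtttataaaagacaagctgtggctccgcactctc
ID2: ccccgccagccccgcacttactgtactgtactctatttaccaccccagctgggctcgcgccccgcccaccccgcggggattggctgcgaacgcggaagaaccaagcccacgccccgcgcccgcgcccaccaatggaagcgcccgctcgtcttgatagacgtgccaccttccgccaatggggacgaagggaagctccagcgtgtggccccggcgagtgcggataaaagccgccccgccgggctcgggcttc
ID3: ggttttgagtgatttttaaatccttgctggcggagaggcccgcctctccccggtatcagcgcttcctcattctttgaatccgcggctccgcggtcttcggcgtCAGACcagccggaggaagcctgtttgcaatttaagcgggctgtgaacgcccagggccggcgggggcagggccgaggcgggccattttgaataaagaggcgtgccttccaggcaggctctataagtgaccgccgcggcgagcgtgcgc
All 10 members had an entry in this RefSeq table. SMAD3, SMAD7 and TGFBR2 had 5, 3 and 2 entries, of which only the first was searched. The words were searched on both strands, and no match overlapped a match to another word. They were the SMAD element CAGAC, the BMP SMAD element GGCGCC and the forkhead words GTAAACA and GTCAACA. Among all 35116 promoter windows of this length, 38.0% held CAGAC, 16.4% held GGCGCC and 4.84% held a forkhead word. The BAMBI window held 3 copies of GGCGCC, beginning 209, 196 and 181 bases before the start, and 2 copies of CAGAC. The TGFB2 window held CAGAC at 243 and 53 bases before the start, and the ID3 window held it at 147 bases. SMAD7 carried 2 copies of CAGAC and SMAD3 carried 2 copies of GGCGCC, whereas the windows of TGFB1, TGFBR2, SMAD6, ID1 and ID2 held none of these words. A forkhead word was found in 0 of the 10 windows searched, 1 for each member. The windows also differed in base composition, from 40.8% G and C at TGFBR2 to 81.2% at BAMBI, beside a median of 58.0% over all windows. A match is a description of these letters only.

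The normalized count of FOXA1, the target of the siRNA pool, was 8446, 8308 and 8767 in the 3 libraries with NT siRNA and DMSO and 12672, 12168 and 13177 after NT siRNA and lapatinib. With FOXA1 siRNA the libraries stood at 1160.1, 1362 and 1564 without drug and 1642, 1888 and 2384 with lapatinib. No depleted library reached the level of a control library, and FOXA1 was 6.18-fold lower on average in DMSO and 6.46-fold lower in lapatinib, and with either siRNA it was higher in lapatinib than in DMSO. Normalized counts are counts divided by library sizes scaled with TMM factors, at the average depth of the 12 libraries, whose totals ran from 25749578 to 32271850. The luminal keratin genes (KRT8, KRT18 and KRT19) and EPCAM were abundant in every group, and CDH1 was below 1 TPM. The summed level of the 6 luminal markers was 11365 to 12760 TPM per library with NT siRNA and 9607 to 10699 TPM with FOXA1 siRNA. The sum was thus lower with FOXA1 siRNA without overlap, as were KRT8 and KRT19, whereas KRT18 and ELF3, also among the 6, overlapped. EPCAM was lower with FOXA1 siRNA in DMSO (216 to 218 against 280 to 300 TPM) and higher in lapatinib (191 to 198 against 176 to 188 TPM). The part of the lower sum in the members' siRNA changes was not tested. ESR1 and PGR were below 1 TPM in every library. The 3 markers of the HER2 amplicon summed to 3378 to 4268 TPM in DMSO and to 5749 to 7805 TPM in lapatinib, a rise carried by ERBB2 and GRB7, whereas STARD3 stood at 383 to 459 TPM in DMSO and 370.0 to 454 TPM in lapatinib. In lapatinib the sum was 7609 to 7805 TPM with NT siRNA and 5749 to 5945 TPM with FOXA1 siRNA, without overlap, whereas in DMSO the siRNA groups overlapped. The part of these shifts in the results was not tested. In every group 6 of 8 fibroblast and mesenchymal markers averaged under 1 TPM (summed level 4.94 to 8.84 TPM per library, LUM at 0), as did 4 of 5 leukocyte markers (15.8 to 28.8 TPM in DMSO and 29.4 to 43.0 TPM in lapatinib, nearly all CD68) and 3 of 4 endothelial markers (4.18 to 12.2 TPM, nearly all CDH5). In a bulk library fewer cells that carry an RNA and less RNA per cell cannot be told apart.

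Every gene that passed the filter was tested by the quasi-likelihood method of edgeR. Its p-values were adjusted over all tested genes after Benjamini and Hochberg, and a change was called where this edgeR adjusted p was under 0.05. Log2 fold changes stand with their standard error (SE). The labels do not say whether replicates came from separate cultures, so the p-values measure the spread between these libraries. The comparisons share groups with each other and are not independent. RefSeq (GRCh38.p14), which also gives the position of each member named with it, places antisense or overlapping transcripts that are not among the listed genes over TGFB2, TGFBR2, SMAD3 and ID3, and reads of these cannot be told apart from those of the members.

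Per transcript length, the ID genes and BAMBI were the most abundant members in all 4 groups. With NT siRNA and DMSO the level in TPM (mean ± SD, n = 3) was 183 ± 25.8 for ID3, 74.3 ± 8.42 for ID2, 44.2 ± 3.45 for BAMBI and 43.8 ± 7.03 for ID1. The next levels were 12.2 ± 1.08 TPM for SMAD6, 11 ± 1.70 for SMAD3, 8.20 ± 0.523 for TGFBR2, 3.69 ± 0.666 for TGFB2, 3.49 ± 0.230 for SMAD7 and 0.230 ± 0.114 for TGFB1. Neighbours in this order whose libraries overlapped were BAMBI with ID1, SMAD6 with SMAD3, and TGFB2 with SMAD7. With NT siRNA and lapatinib the 4 leading members came close together, ID3 at 109 ± 18.8, ID2 at 93.3 ± 4.97, BAMBI at 87.5 ± 8.40 and ID1 at 72.8 ± 5.95 TPM. In this group the overlaps were ID3 with ID2, ID2 with BAMBI, TGFBR2 with TGFB2, and TGFB2 with SMAD7. With FOXA1 siRNA they spread apart again, from ID3 at 221 ± 16.2 TPM over ID2 at 113 ± 13.8 and ID1 at 70.0 ± 18.1 to BAMBI at 17.9 ± 2.50 TPM in DMSO and, in the same order, 195 ± 19.3, 163 ± 4.51, 74.1 ± 8.89 and 33.7 ± 4.67 TPM in lapatinib. No neighbours overlapped with FOXA1 siRNA in DMSO, where SMAD7 at 2.44 ± 0.371 TPM stood above TGFB2 at 1.71 ± 0.141, and TGFBR2 with TGFB2 did in lapatinib. TGFB1 was the lowest member in every group, at 0.383 ± 0.145 TPM after lapatinib alone, 0.427 ± 0.0723 after FOXA1 siRNA alone and 0.407 ± 0.0896 after both.

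In cells with NT siRNA, lapatinib raised 6 of the 10 members, namely TGFB2, BAMBI, SMAD3, SMAD7, ID1 and ID2, and lowered 2, TGFBR2 and ID3. Over all 13713 genes tested, 30.5% were called higher and 29.2% lower, so a large share of the transcriptome moved with the drug. The 1 member that reached a log2 fold change of 1 was BAMBI, beside 13.8% of all genes. In FOXA1-depleted cells 3 members were higher in lapatinib (TGFB2, BAMBI and ID2) and 1 was lower (TGFBR2), beside 29.0% and 29.1% of all genes. TGFB2 was the 1 member that changed at least 2-fold there, a size reached by 10.1% of all genes. The members' log2 fold changes had a median of 0.47 in control cells and 0.14 in depleted cells, beside 0.025 and 0.0060 for all genes.

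FOXA1 siRNA in DMSO lowered 4 members (TGFB2, TGFBR2, BAMBI and SMAD7) and raised 3, the ID genes, beside 21.3% of all genes called lower and 21.9% called higher. In lapatinib it lowered 5 members (TGFB2, TGFBR2, BAMBI, SMAD3 and SMAD7) and raised ID2 and ID3, beside 22.2% and 22.7%. BAMBI and TGFB2 fell by at least 2-fold in DMSO, where 6.84% of all genes changed by as much, and BAMBI alone of the members did in lapatinib, beside 8.41%. The median size of the log2 fold change, whatever its sign, was 0.58 for the members in DMSO and 0.63 in lapatinib, beside 0.25 and 0.26 for all genes. Without replicate 3 of FOXA1 siRNA with DMSO, 4 members instead of 7 were called in DMSO, since SMAD7, ID1 and ID3 no longer were.

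**Figure D1:**
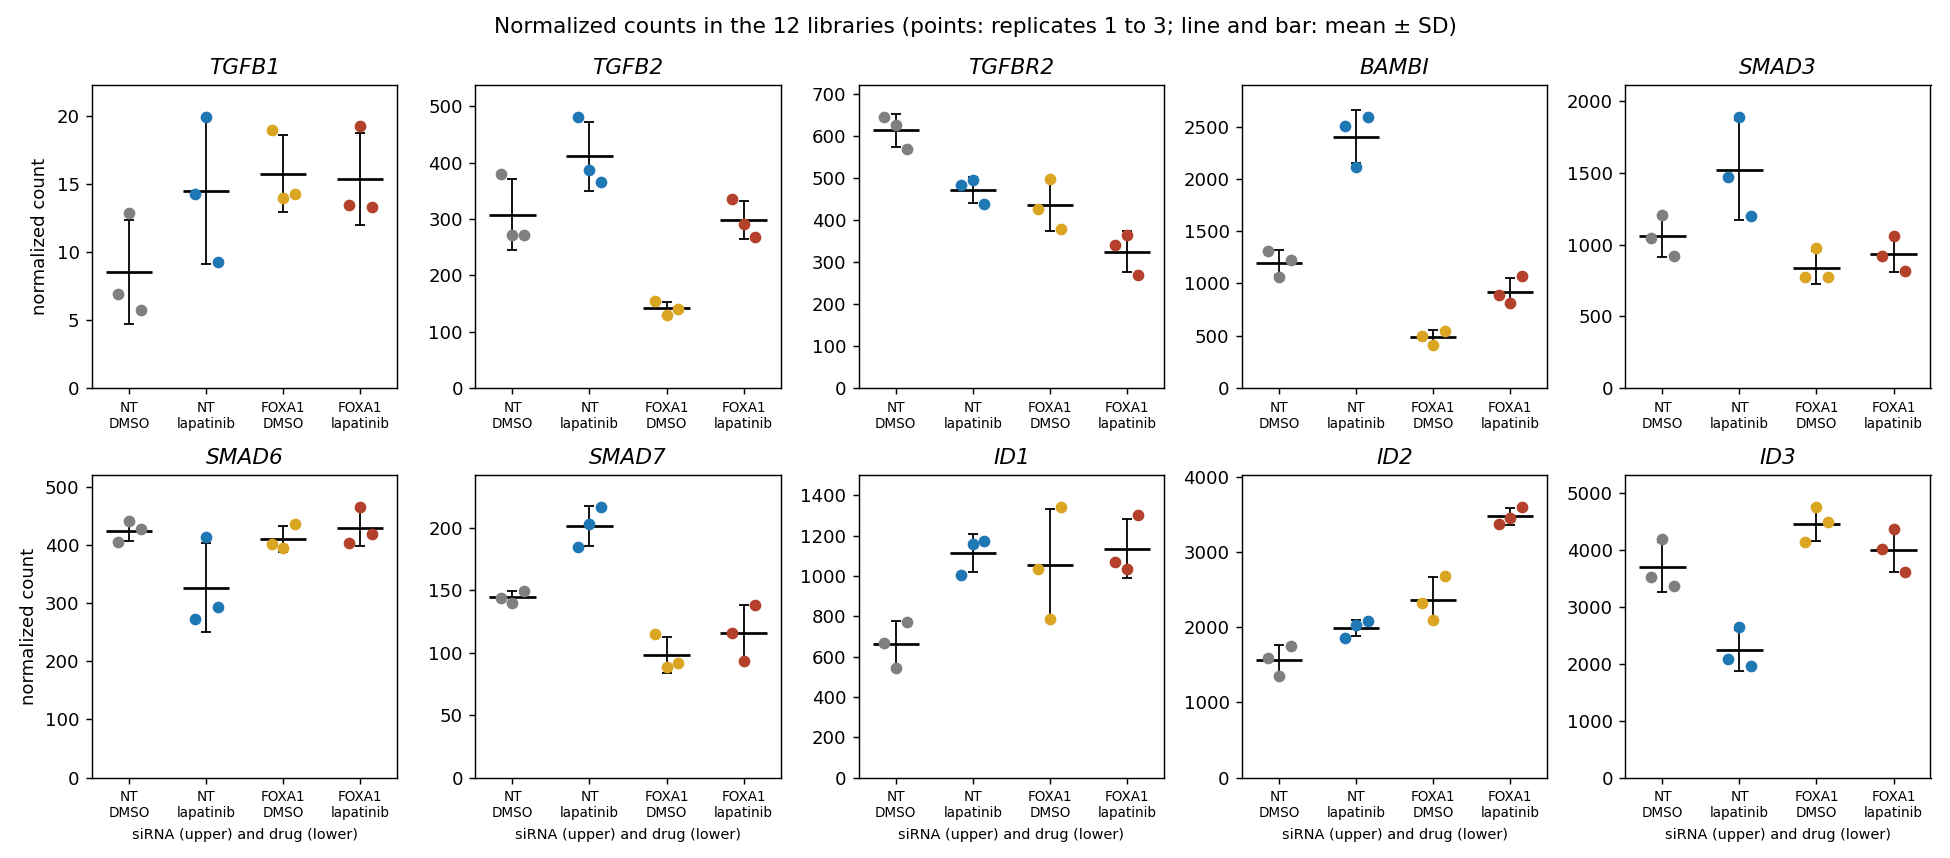
Normalized count of each member (vertical axis, linear and starting at 0) in the 12 libraries by siRNA and drug, with points for replicates 1 to 3, a line for the mean and a bar for the SD. BAMBI was higher in lapatinib and lower with FOXA1 siRNA without overlap, ID3 was lower in lapatinib without overlap in the NT siRNA libraries, and TGFB1 stayed under 20 counts in all libraries.

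TGFB1 and TGFB2 encode secreted TGF-beta ligands. TGFB2 (chr1:218345336-218444619) had 380.2, 272 and 271 normalized counts with NT siRNA and DMSO and 480.3, 388 and 365 with NT siRNA and lapatinib. In FOXA1-depleted cells it had 154, 129 and 139.9 in DMSO and 335, 291 and 268 in lapatinib. The FOXA1 siRNA libraries in DMSO were the lowest, apart from all others, whereas the NT siRNA libraries of the 2 drug groups overlapped at replicate 1 of DMSO. By edgeR, lapatinib raised TGFB2 by 1.09 ± 0.12 on the log2 scale with FOXA1 siRNA (adjusted p = 0.000139) and by 0.44 ± 0.16 with NT siRNA (adjusted p = 0.0449). The call with NT siRNA was lost without any of 4 libraries (NT siRNA with DMSO replicate 2 or 3, NT siRNA with lapatinib replicate 1 or 2), with adjusted p from 0.0521 to 0.163. It was also lost with RLE scaling (edgeR adjusted p = 0.0538), with no count filter (0.0578) and with 10 counts required in every library (0.0507). The fit that took replicate numbers as a block, and so used their pairing, kept this call (edgeR adjusted p = 0.00147). FOXA1 siRNA lowered TGFB2 by 2.16-fold in DMSO, a log2 fold change of -1.11 ± 0.16 (edgeR adjusted p = 0.000946), and by 1.38-fold in lapatinib, -0.47 ± 0.13 (adjusted p = 0.0211). The change in lapatinib was not called without NT siRNA with lapatinib replicate 1 (edgeR adjusted p = 0.0677) or FOXA1 siRNA with lapatinib replicate 3 (adjusted p = 0.0764). The blocked fit of all libraries of the comparison kept it (edgeR adjusted p = 0.000174).

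TGFB1 (chr19:41330323-41353922) was close to the limit of what these libraries can measure. It had 6.90, 12.9 and 5.75 normalized counts with NT siRNA and DMSO and 14.3, 19.9 and 9.23 with NT siRNA and lapatinib, and 19.0, 14 and 14.3 with FOXA1 siRNA and DMSO and 13.4, 19.2 and 13.3 with FOXA1 siRNA and lapatinib. All 6 libraries with FOXA1 siRNA were above the 3 with NT siRNA and DMSO, and within the other 3 comparisons the groups overlapped. TGFB1 was not called in any of the 4 comparisons. Its log2 fold change after FOXA1 siRNA in DMSO was 0.89 ± 0.38 (edgeR, adjusted p = 0.0921), and it was called without NT siRNA with DMSO replicate 2 (1.32, adjusted p = 0.0260). The 95% interval of its lapatinib response with NT siRNA, -0.24 to 1.81, leaves room for a change of either sign.

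TGFBR2 (chr3:30606356-30694142), the type II receptor that binds TGF-beta, was the member that both treatments lowered. It had 644, 626 and 569 normalized counts with NT siRNA and DMSO and 483, 496 and 437 with NT siRNA and lapatinib. Its FOXA1 siRNA libraries had 427, 499 and 379 in DMSO and 339.9, 365 and 269 in lapatinib. The libraries with NT siRNA and DMSO were the highest and the libraries with both treatments the lowest, and neither group overlapped the others. Lapatinib changed TGFBR2 by -0.36 ± 0.088 on the log2 scale with NT siRNA (edgeR, adjusted p = 0.00781) and by -0.41 ± 0.14 with FOXA1 siRNA (adjusted p = 0.0336). This second call was lost without replicate 1 or 2 of FOXA1 siRNA with DMSO or replicate 1 or 3 of FOXA1 siRNA with lapatinib, with adjusted p from 0.0684 to 0.117. It was kept with the replicate number as a block (edgeR adjusted p = 0.00101). FOXA1 siRNA lowered it 1.40-fold in DMSO (log2 fold change -0.48 ± 0.11, edgeR adjusted p = 0.00914) and 1.46-fold in lapatinib (-0.55 ± 0.12, adjusted p = 0.00753).

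BAMBI (chr10:28677521-28682932) encodes a transmembrane protein that resembles a type I receptor but lacks the kinase domain and so dampens TGF-beta and BMP signals. It had 1307, 1066 and 1221 normalized counts with NT siRNA and DMSO and 2504, 2116 and 2589 with NT siRNA and lapatinib. In FOXA1-depleted cells its count was 495, 408 and 545 without drug and 893, 808 and 1067 in lapatinib. The drug raised BAMBI within each siRNA and the siRNA lowered it within each drug, with no overlap in any of the 4 comparisons. By edgeR, the response to lapatinib was 2.04-fold with NT siRNA (log2 fold change 1.03 ± 0.10, adjusted p = 4.95e-05) and 1.92-fold with FOXA1 siRNA (0.94 ± 0.13, adjusted p = 0.000443). FOXA1 siRNA lowered BAMBI 2.46-fold in DMSO (-1.30 ± 0.12, edgeR adjusted p = 0.000111) and 2.62-fold in lapatinib (-1.39 ± 0.12, adjusted p = 5.53e-05). The difference of the 2 lapatinib responses was -0.069 ± 0.18, with a 95% interval of -0.46 to 0.32. Depleted cells given lapatinib thus stayed below control cells in DMSO or close to them, since 1 library of the former, at 1067, reached the lowest of the latter, at 1066.

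SMAD3 (chr15:67065602-67195169) encodes a receptor SMAD that carries the TGF-beta signal to the nucleus. Its normalized count was 1045, 1205 and 919 with NT siRNA and DMSO and 1474, 1887 and 1197 with NT siRNA plus drug. With FOXA1 siRNA its libraries had 770.4, 972 and 772 without drug and 921, 1057 and 817 in lapatinib. Replicate 2 was the highest library in every group, and of the 4 comparisons only that of the siRNAs in lapatinib was free of overlap. Lapatinib raised SMAD3 by 0.54 ± 0.16 on the log2 scale with NT siRNA (edgeR, adjusted p = 0.0199). This call was lost without NT siRNA with DMSO replicate 1 (adjusted p = 0.0567) or replicate 3 (adjusted p = 0.0777), and the blocked fit kept it (edgeR adjusted p = 0.000168). With FOXA1 siRNA the change was 0.16 ± 0.12 (edgeR adjusted p = 0.279), and it was called in the fit that took replicate numbers as a block (adjusted p = 0.0263). FOXA1 siRNA lowered SMAD3 1.64-fold in lapatinib (-0.71 ± 0.16, edgeR adjusted p = 0.00797). In DMSO the change was -0.32 ± 0.13 (edgeR adjusted p = 0.0782), and the blocked fit called it (adjusted p = 0.000537), as did DESeq2 (adjusted p = 0.0476) and fits without NT siRNA with DMSO replicate 3 (adjusted p = 0.0461) or FOXA1 siRNA with DMSO replicate 2 (adjusted p = 0.0212).

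SMAD6 and SMAD7 encode the inhibitory SMADs, which occupy activated receptors and block the receptor SMADs, SMAD6 mainly in BMP signalling. SMAD6 (chr15:66702236-66782849) lies on the same chromosome as SMAD3, 282752 bases apart. It had 406, 441 and 427 normalized counts with NT siRNA and DMSO and 272, 414 and 293 with NT siRNA and lapatinib, and 402, 395 and 436 with FOXA1 siRNA and DMSO and 404, 465 and 419 with FOXA1 siRNA and lapatinib. Replicates 1 and 3 with NT siRNA and lapatinib were lower than all other libraries, and replicate 2 of that group was not. SMAD6 was not called in any comparison. Its log2 fold change was -0.35 ± 0.15 for lapatinib with NT siRNA (edgeR, adjusted p = 0.0747) and 0.38 ± 0.15 for FOXA1 siRNA in lapatinib (adjusted p = 0.0758). Both changes were called with the replicate block (edgeR adjusted p = 0.0165 and 0.00211) and with all 12 libraries in 1 model (0.0265 and 0.0290). They were also called without NT siRNA with lapatinib replicate 2, when they were -0.56 and 0.59. DESeq2 called the lapatinib change (adjusted p = 0.0499) and not the other (adjusted p = 0.0539).

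SMAD7 (chr18:48919853-48950965), which recruits ubiquitin ligases to the TGF-beta receptors, followed another course. Its normalized count was 144, 139.8 and 149.6 with NT siRNA and DMSO and 184, 203 and 216 with NT siRNA and lapatinib. After FOXA1 siRNA it was 115, 88.4 and 91.4 in DMSO and 116, 93.2 and 138 in lapatinib. The libraries with NT siRNA and lapatinib were the highest, and all 6 libraries with FOXA1 siRNA were below all 6 with NT siRNA. Lapatinib raised SMAD7 1.41-fold with NT siRNA (log2 fold change 0.50 ± 0.12, adjusted p = 0.00578 by edgeR). With FOXA1 siRNA the change was 0.24 ± 0.18 (edgeR adjusted p = 0.283), and the difference of the 2 responses, -0.24 ± 0.21, had a 95% interval of -0.71 to 0.22. FOXA1 siRNA lowered SMAD7 1.75-fold in lapatinib (-0.81 ± 0.16, edgeR adjusted p = 0.00396) and 1.46-fold in DMSO (-0.54 ± 0.14, adjusted p = 0.0149). The call in DMSO was lost without NT siRNA with DMSO replicate 3 (edgeR adjusted p = 0.0524) or FOXA1 siRNA with DMSO replicate 3 (adjusted p = 0.0552). It was kept with the replicate block (edgeR adjusted p = 0.00358).

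**Figure D2:**
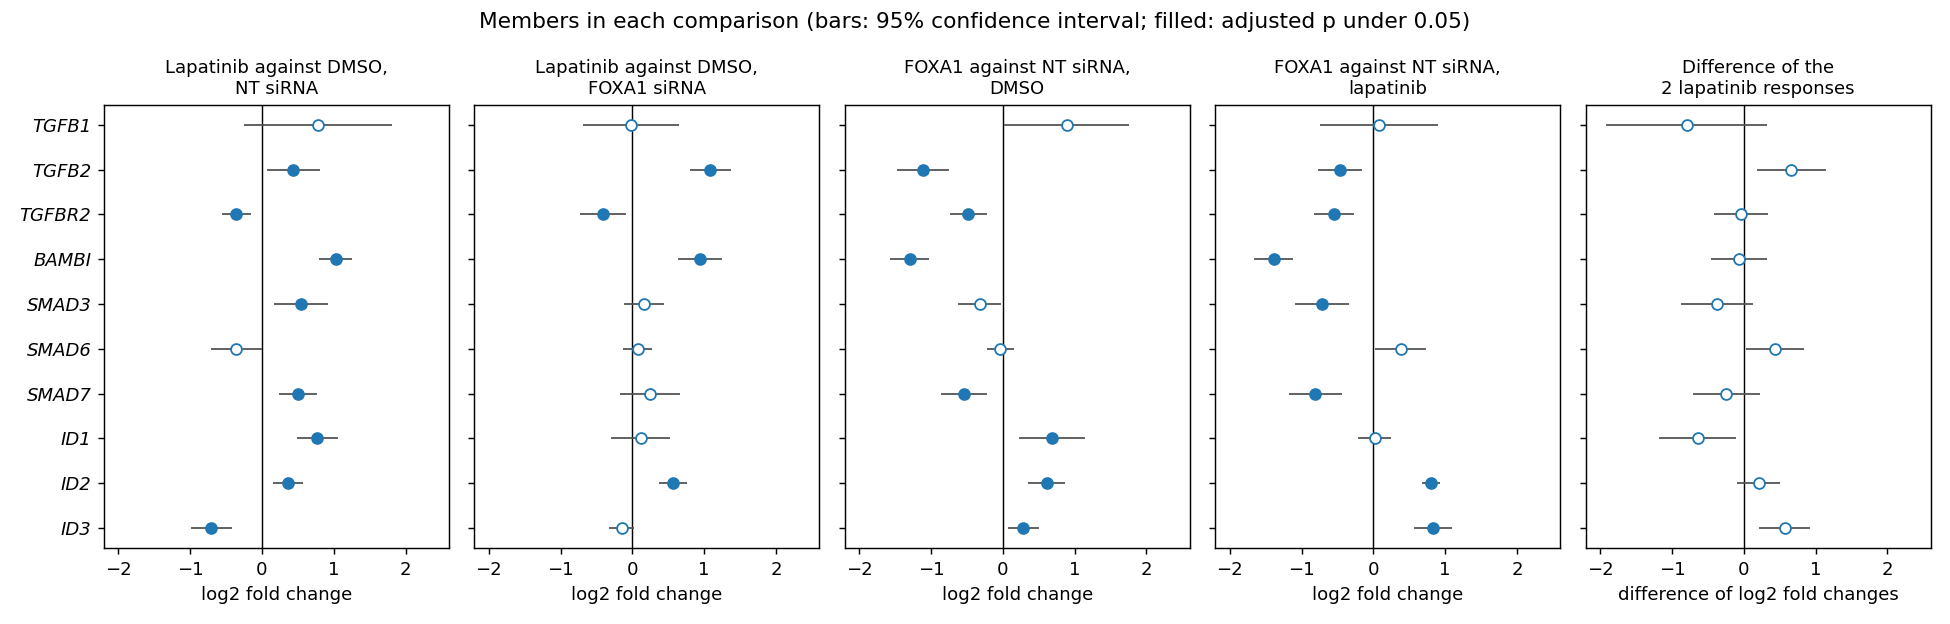
Log2 fold change of each member (horizontal axis) in the 4 comparisons, and, in the last panel, how far the lapatinib responses of FOXA1-depleted and control cells lay apart, with 95% confidence intervals as bars and filled points for adjusted p under 0.05. FOXA1 siRNA changed members in both directions, BAMBI the most among them. No member was called for the difference of the responses in the unblocked edgeR fit shown. With the replicate number as a block, TGFB2, SMAD3, ID1 and ID3 were called.

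ID1, ID2 and ID3 encode inhibitors of E proteins and other basic helix-loop-helix factors. Each of the 3 was higher after FOXA1 siRNA in DMSO, but they answered lapatinib differently. ID1 (chr20:31605289-31606510) had 669.9, 542 and 774 normalized counts with NT siRNA and DMSO and 1005, 1161 and 1174 with NT siRNA plus drug. In depleted cells it had 1035, 784 and 1342 in DMSO and 1070.5, 1032 and 1302 in lapatinib. All libraries that had received either treatment or both were above all libraries that had received neither, and the treated groups overlapped each other. By edgeR, ID1 rose 1.71-fold with lapatinib in NT siRNA cells (log2 fold change 0.77 ± 0.12, adjusted p = 0.000801) and 1.61-fold with FOXA1 siRNA in DMSO (0.68 ± 0.20, adjusted p = 0.0243). The second call was lost without NT siRNA with DMSO replicate 1 or FOXA1 siRNA with DMSO replicate 1 or 3, with adjusted p from 0.0576 to 0.0727. It was kept with the replicate block (edgeR adjusted p = 9.51e-06). Adding lapatinib to FOXA1 siRNA changed ID1 by 0.11 ± 0.18 (edgeR adjusted p = 0.608), and adding FOXA1 siRNA to lapatinib by 0.019 ± 0.10 (adjusted p = 0.892).

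ID2 (chr2:8682056-8684461) was raised by each treatment on either background. It had 1597, 1356 and 1749.6 normalized counts with NT siRNA and DMSO and 1864, 2029 and 2079 with NT siRNA and lapatinib. After FOXA1 siRNA it had 2320.2, 2099 and 2685 without drug and 3379.8, 3454 and 3601 in lapatinib. The 4 groups followed each other in this order without overlap, and the libraries with both treatments stood well above the rest. Lapatinib raised ID2 by 0.37 ± 0.090 on the log2 scale with NT siRNA (adjusted p = 0.00768 by edgeR) and by 0.56 ± 0.085 with FOXA1 siRNA (adjusted p = 0.000658). FOXA1 siRNA raised it 1.52-fold in DMSO (0.61 ± 0.11, edgeR adjusted p = 0.00327) and 1.74-fold in lapatinib (0.80 ± 0.055, adjusted p = 2.26e-05).

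ID3 (chr1:23557926-23559501) went down with lapatinib in control cells, where ID1 and ID2 went up. Its normalized count was 3533, 4200.4 and 3375 with NT siRNA and DMSO and 2092, 2646 and 1969 with NT siRNA and lapatinib. In cells with FOXA1 siRNA it was 4141, 4757 and 4498 in DMSO and 4015, 4362 and 3614 in lapatinib. The libraries with NT siRNA and lapatinib were below all others, and the other groups overlapped. Lapatinib lowered ID3 1.63-fold with NT siRNA (log2 fold change -0.71 ± 0.12, adjusted p = 0.00135 by edgeR). With FOXA1 siRNA the change was -0.15 ± 0.077 (edgeR adjusted p = 0.123), which was called with the replicate block (adjusted p = 0.0215) and without FOXA1 siRNA with lapatinib replicate 2 (adjusted p = 0.0440). FOXA1 siRNA raised ID3 1.78-fold in lapatinib (0.83 ± 0.11, edgeR adjusted p = 0.000650) and 1.22-fold in DMSO (0.28 ± 0.093, adjusted p = 0.0400). The call in DMSO was lost without NT siRNA with DMSO replicate 1 or 3 or FOXA1 siRNA with DMSO replicate 2 or 3, with adjusted p from 0.104 to 0.128. It was also lost with upper-quartile scaling (edgeR adjusted p = 0.0512) or all 12 libraries in 1 model (0.0701). The replicate block kept it (edgeR adjusted p = 0.000393).

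An interaction term over the 12 libraries asked whether FOXA1 depletion altered a member's response to lapatinib. By edgeR at an adjusted p under 0.05, 0 of the 10 members were called, beside 3.99% of all genes called higher and 3.20% called lower. A called difference of at least 1 on the log2 scale was found for 1.03% of all genes and for none of the members. At an unadjusted p under 0.05 there were 4 members (TGFB2, SMAD6, ID1 and ID3), beside 22.2% of all genes, and DESeq2 called 2 (TGFB2 and ID3), beside 10.4%. With the replicate number as a block, 2 members had a more positive response with FOXA1 siRNA (TGFB2 and ID3) and 2 a more negative one (SMAD3 and ID1), beside 11.1% and 9.22% of all genes.

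The difference of the log2 responses, FOXA1 siRNA minus NT siRNA, was 0.57 ± 0.16 for ID3 (edgeR, adjusted p = 0.0531, and 0.000475 with the block). For TGFB2 it was 0.66 ± 0.22 (edgeR adjusted p = 0.0909, with the block 0.00223). ID1 had the opposite sign, with -0.64 ± 0.25 (edgeR adjusted p = 0.144, with the block 0.0111), as did SMAD3 with -0.37 ± 0.23 (adjusted p = 0.384, with the block 0.0135). Without NT siRNA with lapatinib replicate 2 the difference was called for ID3 (0.70, edgeR adjusted p = 0.00942) and SMAD6 (0.64, adjusted p = 0.00952), and without FOXA1 siRNA with DMSO replicate 2 for ID1 (-0.82, adjusted p = 0.0411). For BAMBI, TGFBR2 and ID2 the differences were -0.069, -0.043 and 0.21, with 95% intervals of -0.46 to 0.32, -0.42 to 0.33 and -0.088 to 0.51. In this unblocked fit a modest difference in either direction was thus not detectable for BAMBI and TGFBR2, nor a modest positive one for ID2.

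The list of other genes of the 2 pathways held 118 genes, all present in the files, of which 83 to 86 passed the filter, depending on the comparison. With NT siRNA, lapatinib raised 33 of 83 and lowered 15, beside 30.5% and 29.2% of all genes. With FOXA1 siRNA it raised 29 of 85 and lowered 17, beside 29.0% and 29.1%. FOXA1 siRNA raised 27 of 83 and lowered 20 in DMSO, beside 21.9% and 21.3% of all genes. In lapatinib it raised 15 of 85 and lowered 28, beside 22.7% and 22.2%. In either direction lapatinib changed 57.8% of the list with NT siRNA and 54.1% with FOXA1 siRNA, which lay below the 59.7% and 58.2% of all genes. FOXA1 siRNA changed 56.6% in DMSO and 50.6% in lapatinib, above the 43.2% and 44.9% of all genes. With the replicate number as a block, 57 list genes were called for lapatinib with NT siRNA and 57 with FOXA1 siRNA. For FOXA1 siRNA the block gave 62 in DMSO and 58 in lapatinib. Blocked shares of all genes are not given for these comparisons, so the shares above are compared for the unblocked fits only. The median log2 fold change of the list was 0.22 and 0.15 for lapatinib with NT and FOXA1 siRNA and -0.022 and -0.084 for FOXA1 siRNA in DMSO and lapatinib. Among the signal-transducing SMAD genes other than SMAD3, 3 of 5 tested rose with lapatinib in NT siRNA cells and 0 fell, beside 30.5% and 29.2% of all genes. FOXA1 siRNA raised 3 of 4 of them and lowered 0 in DMSO, and raised 3 of 5 and lowered 1 in lapatinib. Among receptor genes, FOXA1 siRNA in lapatinib lowered 7 of 11 and raised 1, and in DMSO it lowered 2 and raised 2. Of 19 intracellular regulators it lowered 8 and raised 4 in lapatinib, and lowered 6 and raised 8 in DMSO. The shares of all genes for FOXA1 siRNA were 21.9% higher and 21.3% lower in DMSO and 22.7% and 22.2% in lapatinib.

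**Figure D3:**
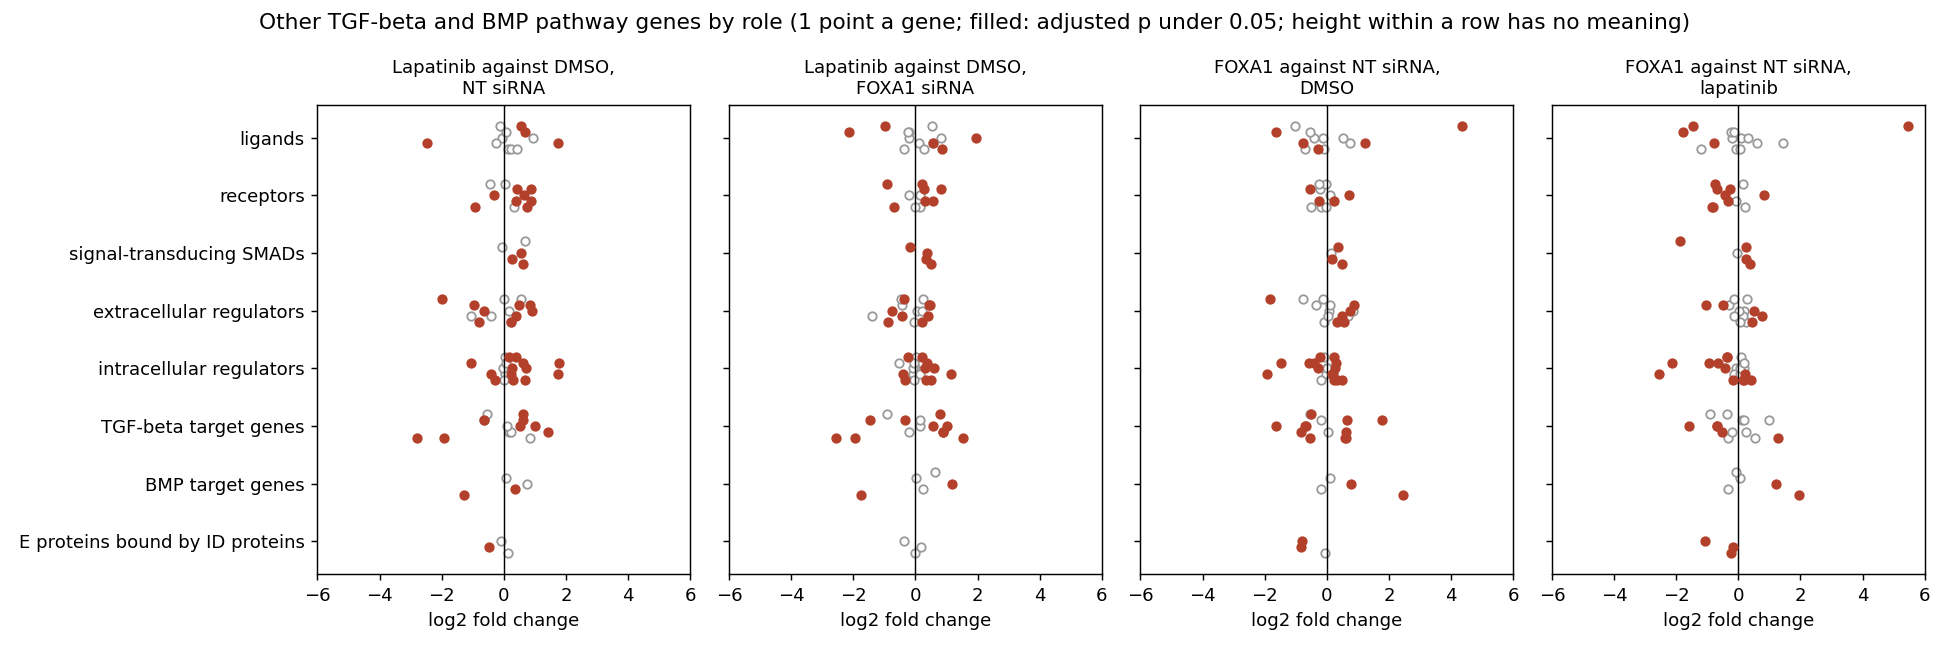
Log2 fold change (horizontal axis) of the other TGF-beta and BMP pathway genes that passed the filter, 1 point a gene, in rows by role for the 4 comparisons, with filled points for adjusted p under 0.05. Points of most roles lie on both sides of 0 in every panel, and the far right point among the ligands is BMP5 after FOXA1 siRNA.

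Several regulators beside the members changed by more than any member did in the comparison concerned. LDLRAD4, an inhibitor that keeps receptor SMADs from the receptors, went from 368 to 1209.7 mean normalized counts with lapatinib in NT siRNA cells (1.74 ± 0.079, adjusted p = 2.56e-06 by edgeR) and from 1209.7 to 209 after FOXA1 siRNA in lapatinib (-2.54 ± 0.072, adjusted p = 1.70e-06). It also rose with lapatinib after FOXA1 siRNA (1.15 ± 0.12) and fell with FOXA1 siRNA in DMSO (-1.94 ± 0.11). NEDD4L, a ubiquitin ligase of activated SMADs, went from 195 to 655 with lapatinib in NT siRNA cells (1.77 ± 0.092, edgeR adjusted p = 3.54e-06) and from 655 to 150.2 after FOXA1 siRNA in lapatinib (-2.13 ± 0.083, adjusted p = 4.23e-06). TGIF2, a transcriptional corepressor of SMADs, fell with lapatinib in NT siRNA cells (-1.06 ± 0.17, edgeR adjusted p = 0.000864) and with FOXA1 siRNA in DMSO (-1.46 ± 0.20, adjusted p = 0.000876). Its fall with FOXA1 siRNA in lapatinib (-0.94 ± 0.21, edgeR adjusted p = 0.00660) was smaller than that of BAMBI.

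Of the ligands, BMP3 rose with lapatinib, from 301 to 981 normalized counts in control cells (1.72 ± 0.14, adjusted p = 2.09e-05 by edgeR) and from 223 to 860.4 in depleted cells (1.96 ± 0.24, adjusted p = 0.000218). GDF11 fell, from 478 to 85.2 and from 326 to 72.9 (-2.47 ± 0.23 and -2.14 ± 0.29). Of the target genes, BHLHE40, a helix-loop-helix repressor, fell with lapatinib from 2231 to 318 in control cells (-2.78 ± 0.15) and from 1514 to 255 in depleted cells (-2.56 ± 0.21). In FOXA1-depleted cells lapatinib raised CTGF, a matricellular protein gene (1.52 ± 0.32), whose change in control cells was 0.85 ± 0.33 (edgeR adjusted p = 0.0529). SNAI1, a repressor of epithelial genes, fell in depleted cells (-1.96 ± 0.15) and in control cells (-1.91 ± 0.17). FOXA1 siRNA lowered FN1, the fibronectin gene, from 7954 to 2556 in DMSO (-1.63 ± 0.15) and from 8486 to 2814 in lapatinib (-1.60 ± 0.14). It raised THBS1, which can activate latent TGF-beta, from 5598 to 10070.4 in DMSO (0.86 ± 0.058) and from 9769.7 to 13842 in lapatinib (0.49 ± 0.10), and the coreceptor gene ENG from 2046 to 3328 and from 1611 to 2847 (0.71 ± 0.12 and 0.81 ± 0.085). JUNB, an AP-1 subunit gene, rose in DMSO (0.66 ± 0.10), with 0.19 ± 0.10 in lapatinib. FSTL1, a secreted BMP antagonist gene, rose in lapatinib (0.77 ± 0.19), with 0.081 ± 0.19 in DMSO.

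For the interaction, 5 of 86 pathway genes were called (5.81%, beside 7.19% of all genes), 1 higher and 4 lower. DESeq2 called 10 pathway genes, beside 10.4% of all genes, and the replicate block gave 19, beside 11.1% of all genes higher and 9.22% lower. The 5 genes, named after their values were seen, were TCF3, an E protein that ID proteins bind (0.67), NEDD4L (-1.54), the type I receptor gene ACVR1 (-0.58), LDLRAD4 (-0.58) and the BMP-binding protein gene TWSG1 (-0.36). Their adjusted p by edgeR ran from 0.000807 to 0.0474. LDLRAD4 and NEDD4L thus responded less to lapatinib after FOXA1 siRNA by this test, whereas BAMBI, another negative regulator that fell with FOXA1 siRNA, had no called difference.

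The genes whose profile over the 12 libraries was closest to a member were found among 10812 genes by the root-mean-square difference of centred log2(normalized count + 1), as a description. For BAMBI, whose own profile had an SD of 0.844, they were TSC22D3 (difference 0.0893), DYRK1B (0.162) and STK38 (0.166). TSC22D3, a glucocorticoid-induced leucine zipper gene, averaged 3644 and 7516 with NT siRNA and 1588 and 2875 with FOXA1 siRNA (DMSO and lapatinib). For TGFB2 (SD 0.588) they were ZFHX3 (0.158), TNS3 (0.189) and PLCD3 (0.211), and for ID1 (SD 0.383) RAD52 (0.170), EFCAB7 (0.175) and AHCYL2 (0.181). Among the members themselves the closest pair was SMAD6 with ID3 (0.257) and the most distant BAMBI with ID3 (1.23), and libraries of 1 group share their depth and handling in all of these values.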

How the data were processed

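The authors deposited for each of 12 RNAseq libraries an expected count per gene, an estimated number of reads that need not be whole, with TPM, FPKM and an upper-quartile normalized signal. FPKM and the deposited signal were read only to check their units. Per the methods of the study, reads were aligned to hg38 by STAR and quantified by Salmon, whereas the submitters' processing notes name RSEM, R 3.2.2, DESeq and DESeq2 1.12.3. The labels name both a stranded and an unstranded library kit, and use of strand in counting is not given in the sources used here.

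Expected counts were rounded to whole numbers. Genes that reached 10 counts in 1 library of a fit or more were tested with edgeR 4.0.16 (R 4.3.3) by glmQLFit and glmQLFTest after TMM normalization. Each pair of groups was fitted on its 6 libraries and the interaction on all 12, with Benjamini-Hochberg adjustment over all genes. The FDR of 5% follows the methods of the study. Library totals ran from 25749578 to 32271850 (median 30542430), which bounds the precision of low genes such as TGFB1. Replicates differed by more than sampling noise (chi-square of 3.75 to 18.5 per degree of freedom). In each of the 18 pairs of same-numbered libraries from different groups, deviations from the group means were correlated (r = 0.241 to 0.624 over 12170 genes). The replicate number thus pairs the libraries, which the main fits did not use. A blocked fit is given where it changes the call of a member and where another fit lost the call of a member. For the other pathway genes it is given as counts. Alternatives were RLE and upper-quartile scaling, DESeq2 1.42.0, other count filters, all libraries in 1 model, a log2 fold change of at least 1, and leaving out each library. The procedures were tested on simulated counts without a replicate effect and with changes of 1 on the log2 scale. That test does not bear on the pairing or on smaller changes.

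The members and the lists were chosen with earlier results of these data known. Named are all members, FOXA1 and, of the pathway lists, up to 3 genes per comparison and direction with the largest called change, no overlap between groups and a mean of at least 100 normalized counts, and the 3 nearest profiles to BAMBI, TGFB2 and ID1. LDLRAD4 and other genes with older symbols were matched by gene ID. Gene positions and promoters are from RefSeq (GRCh38.p14).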

Additional observations from a re-analysis of the deposited data

How the results depend on the processing

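With a log2 fold change of at least 1 required, the members called fell to 1, 1, 2 and 1 for lapatinib with NT siRNA, lapatinib with FOXA1 siRNA, FOXA1 siRNA in DMSO and FOXA1 siRNA in lapatinib, and the other pathway genes to 11, 10, 9, 12 and, for the interaction, 1. The interaction was called for 2 members and 10 pathway genes by DESeq2, for 1 member without a count filter, and for 4 members and 19 pathway genes with the replicate block, against 0 and 5. The block changed 9 calls of a member, all given with the results, and no other call of a member. Leaving out 1 library at a time gave 6 to 8, 3 to 5, 4 to 8, 6 to 8 and 0 to 2 members and 40 to 48, 42 to 48, 38 to 48, 33 to 44 and 3 to 7 pathway genes in the same order, and the interaction stood at 3 pathway genes without NT siRNA with lapatinib replicate 3 or replicate 1 of either FOXA1 siRNA group. Directions turned only when a library was left out, and only for values that were not called, with ranges of -0.21 to 0.13 (TGFB1) and -0.063 to 0.33 (ID1) for lapatinib with FOXA1 siRNA, -0.081 to 0.00024 (SMAD6) for FOXA1 siRNA in DMSO, -0.17 to 0.39 (TGFB1) and -0.087 to 0.080 (ID1) for FOXA1 siRNA in lapatinib, and -0.19 to 0.029 (BAMBI) and -0.14 to 0.076 (TGFBR2) for the interaction. Scaling by RLE or upper quartile turned no direction of a member, and each ended 1 call (TGFB2 for lapatinib with NT siRNA and ID3 for FOXA1 siRNA in DMSO). DESeq2 ended none and added 4. The causes were not tested. In 25 of the 50 tests of a member no alternative changed the call or the direction.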

Other observations

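The following genes of the pathway lists were chosen with their values in view. The TGF-beta ligand gene with the most RNA was TGFB3, at 133 ± 8.94 TPM with NT siRNA and DMSO (mean ± SD, n = 3) and 107 ± 14.6 with lapatinib, and 120.2 ± 12.0 and 99.1 ± 17.3 TPM with FOXA1 siRNA, levels far above those of TGFB2 and TGFB1. It was not called in any comparison, and its log2 fold change with lapatinib in NT siRNA cells was -0.27 ± 0.10 (edgeR's quasi-likelihood test, adjusted p = 0.0520). The fourth ID gene, ID4, was low, with 15.7 ± 3.55 normalized counts with NT siRNA and DMSO, 25.4 ± 7.49 after lapatinib alone, 26.5 ± 1.21 after FOXA1 siRNA alone and 59.5 ± 9.51 after both. It was called higher for FOXA1 siRNA in lapatinib (1.20 ± 0.25, edgeR adjusted p = 0.00566) and for lapatinib with FOXA1 siRNA (1.17 ± 0.20, adjusted p = 0.00118). These are not its only rises, since its mean was also higher after FOXA1 siRNA alone than with NT siRNA and DMSO. In that comparison 2 of the 4 BMP target genes tested, a list that holds ID4, were called higher and 0 lower, beside 21.9% and 21.3% of all genes. BMP5 was at 1.94 ± 1.64 and 0.396 ± 0.686 normalized counts with NT siRNA in DMSO and lapatinib, and at 42.2 ± 12.9 and 21.2 ± 3.16 with FOXA1 siRNA. TCF3, whose protein the ID proteins bind, fell with FOXA1 siRNA in DMSO (-0.83 ± 0.085, edgeR adjusted p = 0.000214), where ID1, ID2 and ID3 were called higher. Its mean also fell with lapatinib in NT siRNA cells, from 3185 to 2262 normalized counts, where ID1 and ID2 rose and ID3 fell. TCF4 fell with FOXA1 siRNA in DMSO (-0.80 ± 0.16, edgeR adjusted p = 0.00459) and in lapatinib (-1.06 ± 0.19, adjusted p = 0.00271). Of the 3 E protein genes, TCF12 being the third, FOXA1 siRNA lowered 2 in DMSO and 3 in lapatinib, beside 21.3% and 22.2% of all genes.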
